A study of Mus musculus with 8 samples.

Results

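The 9 genes described here encode the receptor for interleukin 1 (IL-1) and the proteins next to it. They are the receptors and decoys Il1r1, Il1r2, Il1rap and Sigirr, the secreted antagonist Il1rn, the adaptor Myd88, the kinases Irak1 and Irak3, and the nuclear regulator Nfkbiz. They were taken by symbol from the gene count table of a mouse Th17 cell study, and all 9 were found among its 24426 genes. The study sequenced polyadenylated RNA from 8 libraries of cultured Th17 cells (helper T cells known for interleukin 17), in 4 groups of 2 libraries. One comparison sets miR-96-transduced cells beside cells that received a control vector. The other sets cells of genotype miR-183C-/-, called knockout here, beside miR-183C+/+ cells, called wild type, and neither of these was transduced. miR-183C stands for the cluster of the microRNAs miR-183, miR-96 and miR-182. All groups were on the C57BL/6J background, were grown under a condition named Th17(23) and were collected on day 4 to 5 as GFP-positive sorted cells. What made the untransduced cells GFP-positive is not given in the labels. Nor do the labels say whether the duplicates came from separate mice or cultures. The p-values thus measure the spread between these libraries, and how much of it is technical is not known.

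IL-1 binds the receptor encoded by Il1r1, which then recruits the co-receptor encoded by Il1rap. The intracellular domains of the pair bind the adaptor Myd88, which assembles IRAK kinases and leads to activation of NF-kB and MAP kinases. In T helper cells, IL-1 is known to promote Th17 differentiation through Il1r1, and Nfkbiz, which encodes the nuclear protein IkB-zeta, is known to promote transcription of Il17a.

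Totals ran from 7142429 to 12452659 estimated counts per library. Levels are CPM, counts scaled to a common library total with TMM factors, given for library 1 and then library 2 of a group. Gene changes are log2 fold changes from edgeR's quasi-likelihood test on all 8 libraries. Their standard errors (SE) were derived from it, as the size of the change over the square root of the F statistic. The 95% intervals of log2 fold changes use this SE and a t quantile. A gene was called at a Benjamini-Hochberg adjusted p under 0.05 over the 11851 genes that passed the filter on low counts, which all 9 genes did. The T cell and Th17 markers Cd3e, Cd4, Il17a, Il17f and Il23r were detected in every library. Il17a had 190 and 330 CPM in the miR-96 libraries, against 122 and 90.9 CPM with the control vector. In the knockout it had 14.5 and 24.4 CPM, against 165 and 261 CPM in wild type. Markers of other cell types differed between groups as well. The summed level of 8 B and plasma cell markers was 78.7 and 91.8 CPM with miR-96 and 28.7 and 17.5 with the control vector, and 17.0 and 18.2 CPM in the knockout against 75.8 and 156 in wild type. Ebf1 was the largest part of the low sums, at 26.3 and 14.7 CPM with the control vector and 9.60 and 8.46 in the knockout. Jchain had 26.7 and 31.6 CPM with miR-96 against 0.0784 and 0.193 with the control vector (edgeR adjusted p = 0.00829). In the knockout Jchain had 1.22 and 0.834 CPM, against 24.4 and 64.3 in wild type (0.0211). The 7 markers tested all had positive log2 fold changes with miR-96 and negative ones in the knockout. The sum of 6 CD8 T and NK cell markers was 35.2 and 40.7 CPM with miR-96 and 10.5 and 10.6 with the control vector, and 11.8 and 10.4 in the knockout against 29.5 and 62.6 in wild type. Gzma had 11.6 and 13.2 CPM with miR-96 against 0.157 and 0.483 with the control vector. It had 0 and 0.715 CPM in the knockout against 11.0 and 29.7 in wild type. Cd8b1 instead stayed between 3.27 and 6.22 CPM in all libraries. Of the 5 tested, 5 had a positive log2 fold change with miR-96 and 1 in the knockout (Cd8b1). Ncr1 of the CD8 T and NK cell list was at 0 in all libraries. The sum of 4 regulatory T cell markers was 2036 and 1882 CPM with miR-96 and 1605 and 1742 with the control vector, and 1763 and 1690 in the knockout against 2207 and 2463 in wild type. Most of that sum was Il2ra, which activated T cells also express, and the members differed. Foxp3, which defines regulatory T cells, had 10.4 and 7.59 CPM with miR-96 against 0.157 and 0.290 with the control vector (edgeR adjusted p = 0.0459), and 0.406 and 0 CPM in the knockout against 10.6 and 22.8 in wild type (0.0222). Ikzf2 had 24.9 and 26.5 CPM with miR-96 against 2.75 and 5.22 with the control vector (edgeR adjusted p = 0.0891), and 1.62 and 4.17 CPM in the knockout against 30.8 and 57.7 in wild type (0.0222). Ctla4 had 316 and 375 CPM with miR-96 against 226 and 135 with the control vector (edgeR adjusted p = 0.389). Its knockout and wild-type libraries overlapped, at 406 and 317 CPM against 318 and 486 (0.724). Y-linked genes summed to 111 and 330 CPM with miR-96 and to 1.02 and 0.0967 with the control vector, and to 244 and 266 CPM in the knockout and 114 and 283 in wild type. Xist, an X-linked RNA of female cells, had 1082 and 166 CPM with miR-96 and 1220 and 1480 with the control vector. It had 0 and 144 CPM in the knockout, below the 1218 and 390 in wild type. The duplicates of the miR-96 and wild-type groups thus also differed from each other in both measures. Of the 9 genes only Irak1 lies on a sex chromosome, the X. The part of these differences in the results below was not tested, and in bulk samples fewer cells of a type and less RNA per cell cannot be told apart.

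Il1r1, the signalling receptor for IL-1, was lower in the knockout and had the smallest p of the 9 genes in all 4 edgeR tests. Il1r1 had 31.6 and 44.8 CPM in the miR-96 libraries, against 13.7 and 10.1 CPM in the control vector libraries. It had 7.44 and 11.7 CPM in the knockout libraries, against 24.0 and 41.8 CPM in the wild-type libraries. Both miR-96 libraries thus lay above both control vector libraries, and both knockout libraries lay below both wild-type libraries. In the knockout Il1r1 fell by 1.78 on the log2 scale (SE 0.34), with an adjusted p of 0.0261 in edgeR's test. With miR-96 the log2 fold change was 1.67 (SE 0.33), which was not called (edgeR adjusted p = 0.199). The difference between these contrasts was 3.45 on the log2 scale (SE 0.48, edgeR adjusted p = 0.0126), and Il1r1 was also called in the test for any difference among the 4 groups (edgeR adjusted p = 0.0459). Ordered by mean, Il1r1 averaged 9.56 ± 2.99 CPM in the knockout, 11.9 ± 2.48 with the control vector, 32.9 ± 12.6 in wild type and 38.2 ± 9.31 with miR-96 (SD, n = 2 each). The summed B and plasma cell and CD8 T and NK cell markers were high and low in the same groups. So were the regulatory T cell markers Foxp3 and Ikzf2, whereas Ctla4 overlapped between knockout and wild type. The part of these markers in the Il1r1 values was not tested. Knockout and control vector libraries overlapped, as did wild-type and miR-96 libraries, while control vector and wild-type libraries did not. The vector and genotype groups differ in transduction, so a difference between control vector and wild type cannot be told apart from that. The knockout call was lost without knockout library 1 (edgeR adjusted p = 0.231), wild-type library 1 (0.0809) or wild-type library 2 (0.192), within a range of 2.56e-10 to 0.231 over 16 alternatives, and its log2 fold change then lay between -2.13 and -1.33. The call of the difference was lost without knockout library 1 or wild-type library 2. The 4-group call was lost with a replicate block, a term for the duplicate number in each experiment (edgeR adjusted p = 0.0618). It was also lost without miR-96 library 2, control vector library 2, knockout library 1 or wild-type library 2.

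**Figure D1:**
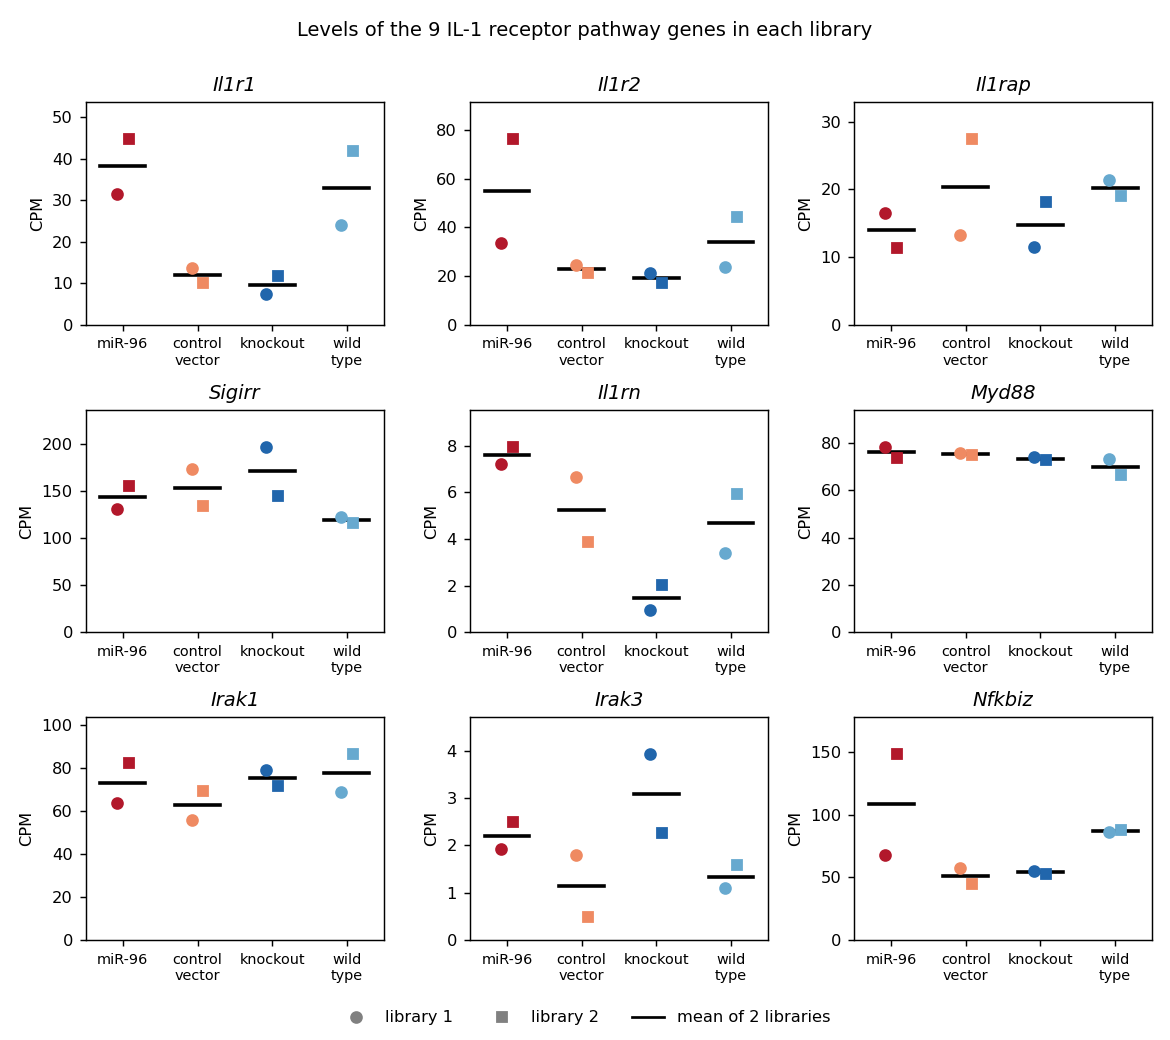
Levels (CPM, axes from 0) of the 9 IL-1 receptor pathway genes in each library by group, with circles for library 1, squares for library 2 and a line at the mean of 2. Il1r1 was at 31.6 and 44.8 CPM with miR-96 and 13.7 and 10.1 with the control vector, and Myd88 lay between 66.7 and 78.5 CPM in all 8 libraries.

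**Figure D2:**
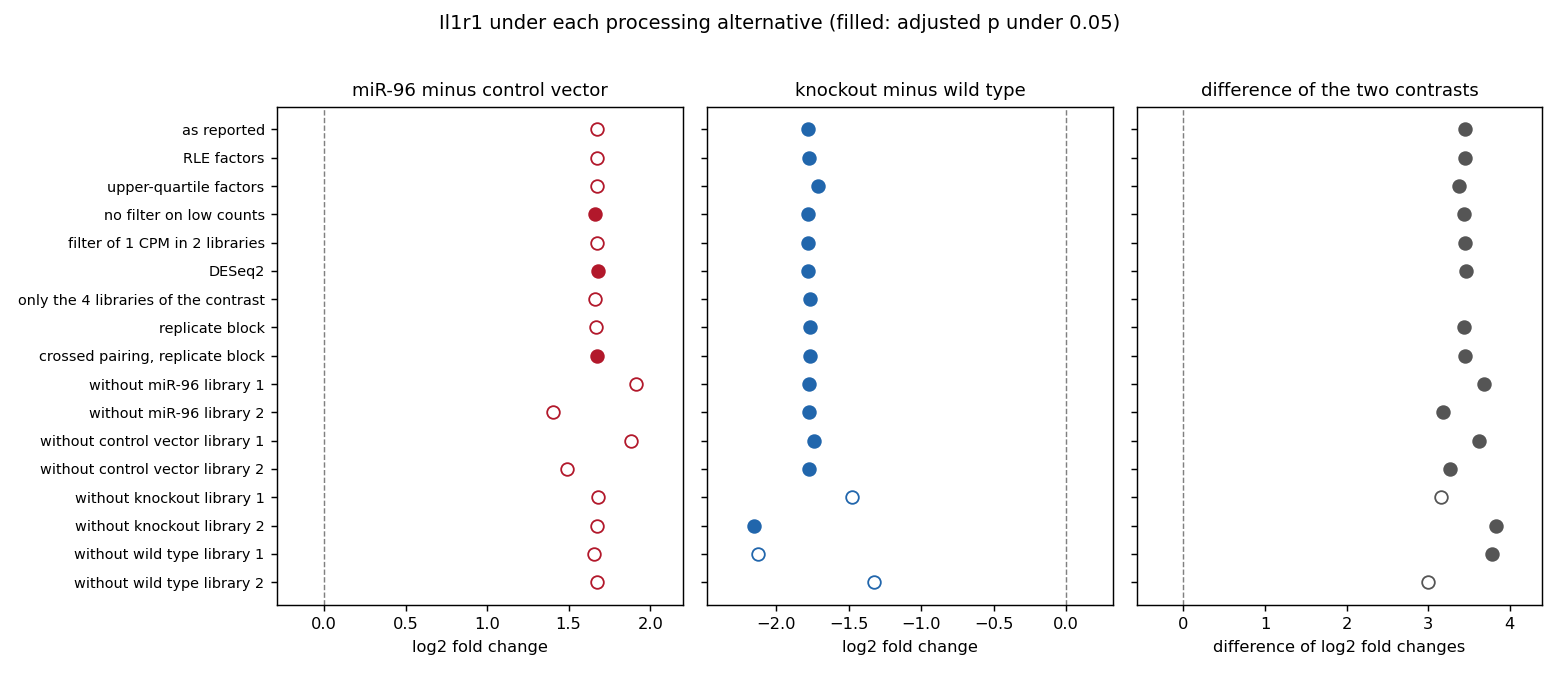
Il1r1 under the reported fit and each alternative, with the log2 fold change on the x axis and filled points where the adjusted p was under 0.05. The knockout value stayed between -2.16 and -1.33 and the miR-96 value between 1.40 and 1.91, while the calls changed with the libraries kept and with the test.

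Because a microRNA acts through matches to its seed (bases 2 to 8) in the 3′ UTR of a transcript, the mature microRNAs of the cluster are given with the seed in capitals (RefSeq, GRCm38.p6, chromosome 6, minus strand), to show the letters that were searched for in the 9 genes.
mmu-miR-96-5p: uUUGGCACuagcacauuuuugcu
mmu-miR-182-5p: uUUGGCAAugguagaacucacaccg
mmu-miR-183-5p: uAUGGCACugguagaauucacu
The site letters searched on the transcript strand were GTGCCAA for miR-96, TTGCCAA for miR-182 and GTGCCAT for miR-183. The miR-96 seed differs from that of miR-182 only in its last base and from that of miR-183 only in its first. In the longest annotated 3′ UTR of each of the 9 genes (GENCODE M21, GRCm38), the full miR-96 site was found in none. The miR-182 sites below match all of the miR-96 seed but its last base, and shorter matches were not searched for. Among 11061 tested genes with an annotated 3′ UTR, 9.40% held the miR-96 site, 12.3% the miR-182 site, 10.8% the miR-183 site and 26.5% any of them. Il1r1 held 1 miR-182 site and 1 miR-183 site in a 3′ UTR of 3864 bases, where the median over those genes was 1181 bases. The annotated 3′ UTR of Il1r2 had only 24 bases, so a missing site there says little. Irak1 held 1 miR-182 site near the end of its 3′ UTR. Capitals mark the site in each stretch below, written 5′ to 3′ on the transcript strand.
Il1r1 miR-182 site, chr1:40314606-40314632: tggtatagatTTGCCAAggcctttatt
Il1r1 miR-183 site, chr1:40314028-40314054: aatggctgtcGTGCCATcttccttctg
Irak1 miR-182 site, chrX:74013914-74013934: ttttactccaTTGCCAAccta
A match is a description of letters and does not show that a site is used.

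Il1r2 encodes a decoy receptor that binds IL-1 without a signalling domain, and it lies beside Il1r1 on chromosome 1 (Il1r2 at 40074079 to 40125231, Il1r1 at 40225080 to 40317257, both on the plus strand). Il1r2 had 33.5 and 76.4 CPM with miR-96, against 24.7 and 21.3 CPM with the control vector. It had 21.1 and 17.2 CPM in the knockout, against 23.6 and 44.5 CPM in wild type. The groups did not overlap in either comparison, but the miR-96 libraries lay far apart and wild-type library 1 lay close to the knockout. Neither log2 fold change was called, at 1.25 with miR-96 (SE 0.39, edgeR adjusted p = 0.442) and -0.84 in the knockout (SE 0.40, 0.174). The difference between the contrasts was 2.09 (SE 0.56) and missed the threshold, with an edgeR adjusted p = 0.0517. That value ran from 5.47e-09 without a filter to 0.202 without wild-type library 2 over 15 alternatives.

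Per kilobase of annotated exon, the decoy Il1r2 was the more abundant of the pair in every library. This order rests partly on the exon lengths, 6363 bases for Il1r1 and 1908 for Il1r2, as unions over annotated transcripts. In CPM alone, Il1r1 over Il1r2 was 1.02 in wild-type library 1 and 0.353 to 0.943 in the others. The ratio of Il1r1 to Il1r2 in CPM per kilobase was 0.283 and 0.176 with miR-96, and 0.166 and 0.143 with the control vector. It was 0.106 and 0.204 in the knockout, and 0.304 and 0.282 in wild type. Both knockout ratios were thus below both wild-type ratios, and both miR-96 ratios were above both control vector ratios, the closest pair being 0.176 and 0.166. These ratios are a description and were not tested.

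Il1rap encodes the co-receptor that IL-1, IL-33 and IL-36 receptors share. Il1rap had 16.6 and 11.3 CPM with miR-96, against 13.3 and 27.5 CPM with the control vector. It had 11.5 and 18.1 CPM in the knockout, against 21.3 and 19.0 CPM in wild type. The vector groups overlapped, with the highest of the 8 values in control vector library 2, while both knockout libraries were below wild type by a small margin. The log2 fold change was -0.53 with miR-96 (SE 0.37, edgeR adjusted p = 0.731) and -0.44 in the knockout (SE 0.37, 0.426). Without control vector library 2 the miR-96 value was 0.09. The ratio of Il1r1 to Il1rap in CPM per kilobase was 3.40 and 7.06 with miR-96 and 1.84 and 0.660 with the control vector, and 1.16 and 1.15 in the knockout against 2.01 and 3.92 in wild type.

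**Figure D3:**
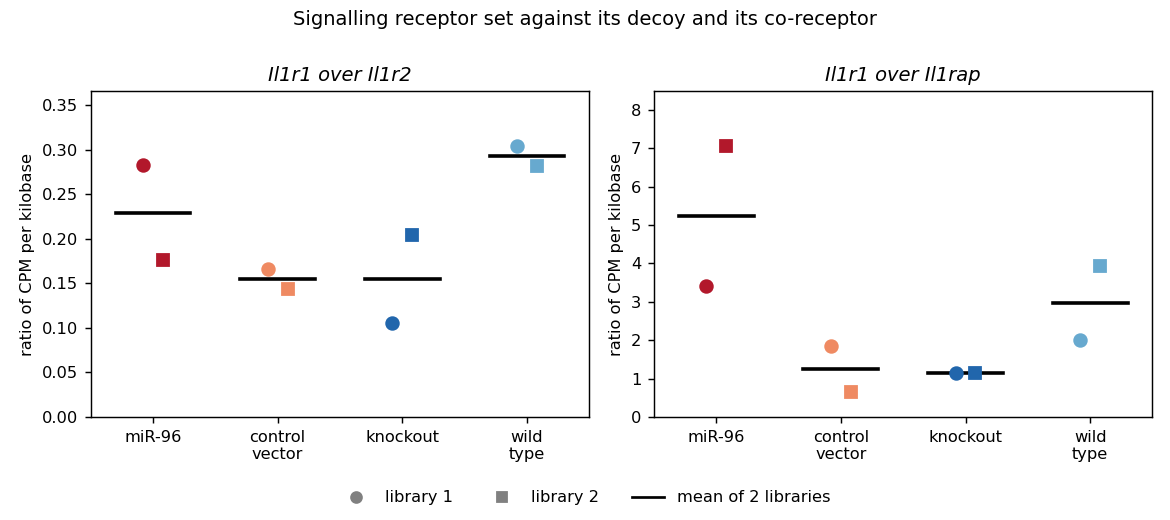
Ratio of Il1r1 to its decoy Il1r2 (left) and to its co-receptor Il1rap (right) in each library, in CPM per kilobase of annotated exon, with a line at the mean of 2 libraries. The knockout ratios to Il1rap were 1.16 and 1.15, against 2.01 and 3.92 in wild type.

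Sigirr encodes a single-domain receptor of the same family that restrains IL-1 signalling, also in Th17 cells. It was the most abundant of the 9 genes on the CPM scale and per kilobase. Sigirr had 132 and 156 CPM with miR-96, against 173 and 134 CPM with the control vector. It had 197 and 145 CPM in the knockout, against 123 and 116 CPM in wild type. The vector groups overlapped and the knockout lay above wild type, opposite to Il1r1. The knockout log2 fold change of 0.52 (SE 0.19) was not called (edgeR adjusted p = 0.0952), and that with miR-96 was -0.10 (SE 0.19, edgeR adjusted p = 0.927). The 95% interval of the miR-96 value ran from -0.53 to 0.33.

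Il1rn encodes the secreted IL-1 receptor antagonist, which occupies Il1r1 without signalling. Its level was low, with 7.24 and 7.96 CPM with miR-96 and 6.67 and 3.87 CPM with the control vector. In the knockout it was at 0.947 and 2.02 CPM, against 3.41 and 5.95 CPM in wild type. The knockout libraries held 24 counts in all and the wild-type libraries 88, a ratio of 0.316 (95% interval 0.192 to 0.501, counting error only). Between these groups the log2 fold change was -1.64 (SE 0.51), with an edgeR adjusted p = 0.0625. It was called in 3 of 16 alternatives, among them DESeq2 (adjusted p = 0.0448). Knockout libraries were below those of the other 3 groups without overlap. With miR-96 the log2 fold change was 0.52 (SE 0.44, edgeR adjusted p = 0.785).

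Myd88, the adaptor that couples IL-1 and Toll-like receptors to IRAK kinases, was the steadiest member. Myd88 had 78.5 and 73.9 CPM with miR-96, against 75.9 and 75.0 CPM with the control vector. It had 74.0 and 72.8 CPM in the knockout, against 73.2 and 66.7 CPM in wild type. The highest of the 8 libraries was 1.18 times the lowest, and the groups overlapped in both comparisons. The log2 fold change was 0.01 with miR-96 (SE 0.13, 95% interval -0.28 to 0.30) and 0.07 in the knockout (SE 0.13, -0.22 to 0.36). The edgeR adjusted p was 0.983 and 0.735.

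The kinases differed in level. Irak1, which Myd88 recruits to the receptor, had 63.8 and 82.2 CPM with miR-96 against 55.9 and 69.5 with the control vector, and 79.3 and 71.8 CPM in the knockout against 69.1 and 86.4 in wild type. Its groups overlapped in both comparisons, with log2 fold changes of 0.22 (SE 0.19, edgeR adjusted p = 0.785) and -0.04 (SE 0.19, 0.891). Irak3, also known as IRAK-M, is an inhibitory member of the family best known from macrophages. Irak3 was near the detection limit, with 1.92 and 2.49 CPM with miR-96 against 1.80 and 0.483 with the control vector, and 3.92 and 2.26 CPM in the knockout against 1.10 and 1.59 in wild type. Both knockout libraries lay above both wild-type libraries, at 48 counts in all against 25, a ratio of 2.23 (95% interval 1.35 to 3.77, counting error only). Neither log2 fold change was called, at 0.90 with miR-96 (SE 0.66, edgeR adjusted p = 0.739) and 1.18 in the knockout (SE 0.66, 0.235). Without control vector library 1 the miR-96 value of Irak3 was 2.13. Of 10 myeloid markers, S100a8 and S100a9 were at 0 in every library. Of the 6 tested, 6 had a positive log2 fold change with miR-96 and 3 in the knockout, and 0 were called. Itgam had 0.916 and 2.11 CPM with miR-96 against 0.549 and 0.290 with the control vector. It had 0.406 and 0.238 CPM in the knockout against 0.731 and 1.29 in wild type. Tyrobp had 0.733 and 0.124 CPM with miR-96 and 0.609 and 1.39 in wild type, and 0 in the other libraries. The summed level of the 10 was 15.8 and 26.4 CPM with miR-96 and 18.7 and 7.06 with the control vector. It was 17.4 and 8.58 in the knockout against 8.77 and 11.0 in wild type. Both sums overlapped between groups, and Cd68 was their largest part, at 3.86 to 21.4 CPM. The part of these markers in the Irak3 values was not tested.

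Nfkbiz, an early target of IL-1 signalling in many cells, differed between the contrasts as Il1r1 did. Nfkbiz had 68.3 and 148 CPM with miR-96, against 57.7 and 45.1 CPM with the control vector. It had 55.5 and 53.0 CPM in the knockout, against 86.0 and 88.1 CPM in wild type. The knockout and wild-type duplicates were each close together and well apart from each other, whereas miR-96 library 2 was far above library 1. The log2 fold change was 1.07 with miR-96 (SE 0.30, edgeR adjusted p = 0.387) and -0.68 in the knockout (SE 0.31, 0.150), neither of them called. With miR-96 library 2 left out, the first value was 0.41. The difference between the contrasts was called, at 1.75 on the log2 scale (SE 0.43, edgeR adjusted p = 0.0418). This call was lost with upper-quartile factors (edgeR adjusted p = 0.0508) and with the replicate block (0.0847). It was also lost without control vector library 1 or 2, knockout library 1 or 2, or wild-type library 1 or 2. Of 15 alternatives 7 kept it, and the difference ran from 1.09 to 2.22 on the log2 scale. Among those 7 was a replicate block with the numbers of the miR-96 libraries swapped, chosen after seeing the data. The knockout difference was called in 5 of 16 alternatives, among them the fit of only the 4 genotype libraries (edgeR adjusted p = 0.0152).

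**Figure D4:**
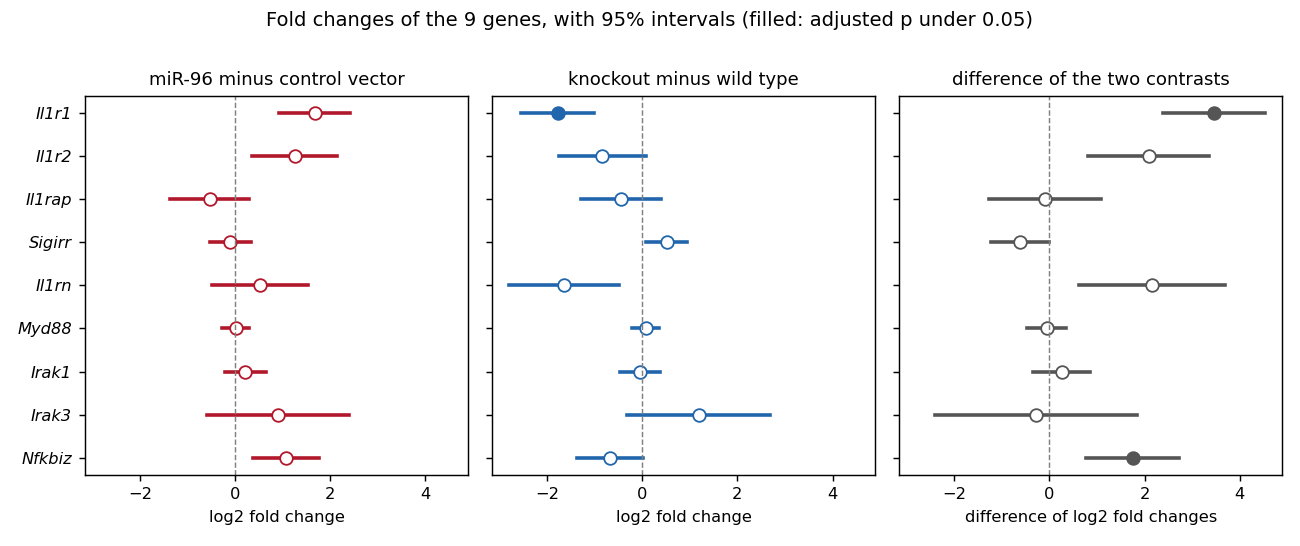
Log2 fold changes of the 9 genes with 95% intervals for miR-96 over control vector, for knockout over wild type and for the difference between them, with filled points where the adjusted p was under 0.05. Filled points are Il1r1 in the knockout (-1.78) and Il1r1 and Nfkbiz in the difference (3.45 and 1.75).

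In the comparison of miR-96 with control vector cells, which asks what added miR-96 does to the pathway, edgeR called 0 of the 9 genes. The background share of called genes was 0.110% of 11851. At an unadjusted edgeR p under 0.05 there were 3 of the 9 (Il1r1, Il1r2 and Nfkbiz), beside 1031 of all 11851 genes tested. DESeq2 called 2 of the 9 (Il1r1 with an adjusted p = 0.000516 and Nfkbiz with 0.0317). The median log2 fold change of the 9 was 0.52, beside 0.01 over all genes tested. In 5 of the 9 genes both miR-96 libraries lay above both control vector libraries and in 0 both lay below, where the background share was 35.9% not overlapping, with 18.3% above and 17.6% below. Those 5 were Il1r1, Il1r2, Il1rn, Irak3 and Nfkbiz. For Il1r1, Il1r2, Irak3 and Nfkbiz the wild-type libraries, which carry no vector, also had a mean above that of the control vector libraries, with overlap for Il1r2 and Irak3. Without miR-96 library 1 the test called Il1r2 and Nfkbiz (edgeR adjusted p = 0.0499 and 0.0248). The count over all genes was then 125, and it was 0 and 1 without control vector libraries 1 and 2.

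In the comparison of knockout with wild-type cells, which asks what loss of the cluster does, 1 of the 9 genes was called, Il1r1, and it was lower. That is 11.1% of the members, beside a background of 13.0% of all genes called and 6.40% called lower, so the share of members called was near that of other genes. The median log2 fold change of the 9 was -0.44, beside -0.01 over all genes. The knockout libraries lay below wild type in 5 of the 9 genes (Il1r1, Il1r2, Il1rap, Il1rn and Nfkbiz) and above in 2 (Sigirr and Irak3), where the background was 69.8% not overlapping, with 34.9% below and 34.9% above. Of these 7 genes without overlap, the test called Il1r1. The members' count was 0 without knockout library 1, wild-type library 1 or wild-type library 2, and 2 without either miR-96 library or knockout library 2. The count of calls over all genes was 0 without knockout library 1, 20 without wild-type library 1 and 1 without wild-type library 2.

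The difference of the contrasts asks whether the effect of miR-96 differs from that of the knockout, and it called 2 of the 9 genes, Il1r1 and Nfkbiz, or 22.2%, beside a background of 9.03% of all genes and 4.58% in the positive direction. In both, the value with miR-96 was positive and the value in the knockout negative, so their sizes add up in this test. The test for any difference among the 4 groups called 1 of 9 (Il1r1), or 11.1%, beside a background of 1.05%. Without miR-96 library 1 each of these tests called 3 of the 9. The difference called 0 without knockout library 1 or wild-type library 2 and 1 without either control vector library, knockout library 2 or wild-type library 1.

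The rest of the pathway was followed in 59 other genes of the IL-1 family and its signalling chain, of which 58 were in the table and 49 passed the filter. With miR-96, edgeR called 0 of the 49 and DESeq2 2, and the median log2 fold change of the 49 was 0.06. An unadjusted edgeR p under 0.05 was found for 5 of the 49, beside 1031 of all 11851 genes tested. Il1b, which encodes the ligand IL-1 beta, had 30 counts over both miR-96 libraries and 0 in both control vector libraries, at least 12.2-fold higher with a floor of 3 counts over the group (edgeR adjusted p = 0.354). Il18r1, a receptor chain for interleukin 18, had 37.3 and 106 CPM with miR-96 against 25.3 and 13.7 CPM in control vector libraries, 1.86 on the log2 scale (SE 0.46) with an edgeR adjusted p = 0.354. All 4 tested receptors of the list (Il18r1, Il18rap, Il1rl1 and Il1rl2) had a positive log2 fold change with miR-96, and 0 were called.

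In the knockout, 4 of the 49 genes fell and 0 rose, 8.16% beside the background of 6.40% called lower and 6.63% called higher, so this share too was near the background. Il1a, the gene of the ligand IL-1 alpha, had 0.271 and 0.476 CPM in the knockout against 2.56 and 3.27 in wild type, or 6 counts against 54 (ratio 0.129, 95% interval 0.0453 to 0.299, edgeR adjusted p = 0.0307). Nlrp3, a sensor of the inflammasome that processes IL-1 beta, had 0.406 and 0.715 CPM in the knockout against 3.90 and 3.27 in wild type (edgeR adjusted p = 0.0292). It held 9 counts in the knockout and 65 in wild type, and 79 with miR-96 against 114 with the control vector. Rel, an NF-kB subunit of lymphocytes, had 18.3 and 31.1 CPM in the knockout against 50.6 and 58.9 in wild type and fell by 1.15 on the log2 scale (SE 0.29) with an edgeR adjusted p = 0.0400. Also lower was Nfkb1, named after its values were seen, with 397 and 531 CPM in the knockout against 935 and 894 in wild type, and it fell by 0.98 (SE 0.26) with an edgeR adjusted p = 0.0434. Il1b had 1 count in the knockout and 28 in wild type, a ratio of 0.0414 (95% interval 0.00101 to 0.250, counting error only, edgeR adjusted p = 0.0669). Of the 23 tested adaptors and kinases, 0 were called in the knockout and their median log2 fold change was -0.05. Among the 14 feedback and target genes 2 fell, Rel and Nfkb1, with a median of -0.16. The count of 4 was 0 without knockout library 1, wild-type library 1 or wild-type library 2.

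The difference of the contrasts called 3 of the 49 genes, or 6.12% beside the background of 9.03%. They were Il1b (edgeR adjusted p = 0.0253), Rel (1.61, SE 0.41, adjusted p = 0.0449) and Peli1, a ubiquitin ligase that acts with IRAK kinases (1.12, SE 0.26, adjusted p = 0.0370). Peli1 had 247 and 311 CPM with miR-96 against 175 and 208 with the control vector, and 174 and 228 CPM in the knockout against 277 and 323 in wild type. In the 4-group test edgeR called 0 of the 49 and DESeq2 8. An unadjusted edgeR p under 0.05 was found for 13 of the 49, beside 3047 of all 11851 genes tested, a similar share. Nlrp3 (edgeR adjusted p = 0.0685) and Il18rap (0.0753) had the smallest p. Il18rap had 23.1 and 57.5 CPM with miR-96 against 14.2 and 14.1 with the control vector, and 7.98 and 13.6 CPM in the knockout against 13.4 and 14.7 in wild type. The count of 3 in the difference was 6 without miR-96 library 1 and 1 without miR-96 library 2 or wild-type library 1. It was 0 without control vector library 1, knockout library 1 or wild-type library 2.

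**Figure D5:**
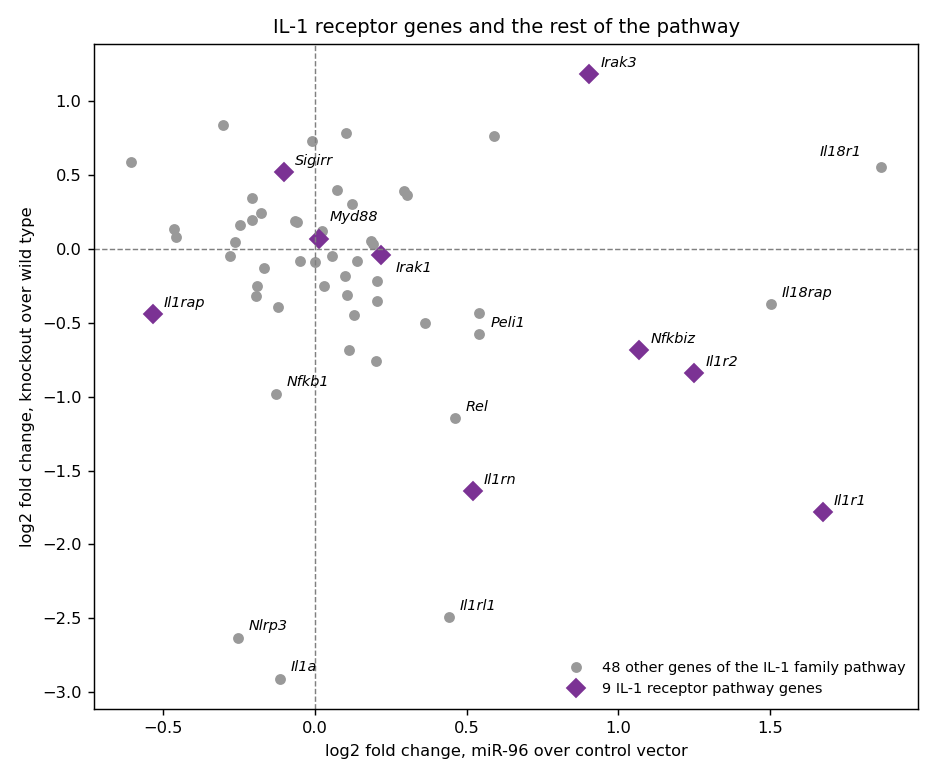
Log2 fold change with miR-96 over control vector (x axis) against knockout over wild type (y axis) for the 9 genes (diamonds) and the 49 other tested pathway genes except Il1b, left out because its control vector libraries held 0 counts. Il1r1 lies at 1.67 and -1.78, while Nlrp3 and Il1a lie low on the y axis and near 0 on the x axis.

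Per kilobase of annotated exon, the members spanned a wide range of levels within each group. The means in wild type were 39.3 CPM per kilobase for Sigirr, 27.2 for Myd88, 17.9 for Il1r2, 17.4 for Nfkbiz, 16.5 for Irak1, 5.17 for Il1r1, 1.78 for Il1rap, 0.845 for Il1rn and 0.365 for Irak3. In the knockout the mean was 1.50 CPM per kilobase for Il1r1 and 56.2 for Sigirr. Exon lengths are the union over annotated transcripts, so genes with long alternative exons, such as Il1rap with 11360 bases, are understated. The members also differed in how much they varied over the 8 libraries on the CPM scale. The highest library was 8.41 times the lowest for Il1rn, 8.12 for Irak3, 6.02 for Il1r1, 4.45 for Il1r2 and 3.28 for Nfkbiz, against 2.43 for Il1rap, 1.70 for Sigirr, 1.55 for Irak1 and 1.18 for Myd88. Part of the spread of Il1rn and Irak3 is counting error, since single libraries held as few as 7 and 5 counts.

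Over the 8 libraries, log2 CPM of Il1r1 correlated with that of Nfkbiz (Pearson r = 0.85) and Il1r2 (0.85), and Il1r2 with Nfkbiz (0.89). The values for Il1r1 were -0.58 with Sigirr, -0.29 with Myd88 and -0.07 with its co-receptor Il1rap. Of the 9036 genes compared, those most like Il1r1 were Skil (Pearson r = 0.99), Maf (0.99), Rnf6 (0.98), Trappc8 (0.98) and Snhg5 (0.98). Maf, which encodes a transcription factor of Th17 cells, had 211 and 296 CPM with miR-96 against 126 and 99.1 with the control vector, and 71.0 and 83.0 CPM in the knockout against 181 and 277 in wild type. Those most like Il1r2 were Rrm2b (0.98), Sox5 (0.96), Uhrf1bp1l (0.96), Baz2b (0.96) and Papd4 (0.95). Those most like Nfkbiz were Ppp1r12a (0.98), Armcx5 (0.98), Uvssa (0.96), Tmem123 (0.96) and Arap2 (0.96). The 8 points fall into 4 groups and share library preparation and depth, so these values describe likeness over these libraries and carry no p.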

How the data were processed

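Per the submitters' processing notes, the tools named are STAR 2.3.0, bcl2fastq 2.16.0.10, edgeR and Partek and the build is mm10, and the role of each is not given. The authors deposited 1 table of estimated counts per gene symbol, not normalized, with 1 column per library. The annotation and the use of strand in counting are not given in the sources used here. The spans of Il1r1, Il1r2, Il1rap, Myd88, Irak1 and Irak3 overlap other annotated genes, and reads there cannot be told apart. In knockout library 1, 55.6% of detected genes had values more than 0.02 from a whole number, against 6.39% to 7.41% in the others. Of 24453 lines, 27 with a date serial in place of a symbol were left out (at most 0.243% of a library), and counts were rounded.

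The fit used edgeR 4.0.16 in R 4.3.3 with a term for group over all 8 libraries, TMM factors and filterByExpr (minimum count 10, minimum total 15), leaving 4 residual degrees of freedom. The biological coefficient of variation was 0.188. Ratios of summed counts carry 95% exact binomial intervals. The fit was tested on simulated data with the same spread for all genes, which cannot show how it deals with unlike duplicates. Likeness used log2 CPM (prior count 2) of genes with a mean log2 CPM of at least 3. Promoter sequences were not used here. Tried in addition were upper-quartile and RLE factors, no filter, 1 CPM in 2 libraries, DESeq2 1.42.0, the 4 libraries of a contrast, a replicate block, and each library left out. A replicate block with the numbers of the miR-96 libraries swapped (crossed pairing) was added after seeing the data. Counts and ranges over 15 or 16 alternatives include it. The genes, lists and tests were chosen with earlier results of these data known. Named pathway genes were up to 3 called genes with the smallest p per comparison, otherwise the 2 with the smallest p. All 9 members and the 5 genes most like Il1r1, Il1r2 and Nfkbiz were named too.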

Additional observations from a re-analysis of the deposited data

Results flagged for a closer look

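Il1r1 stood out because its changes in the 2 experiments differed in the test of the difference itself. miR-96 was added in one experiment and the cluster was lost in the other, so changes of opposite sign enlarge this difference. The log2 fold change with miR-96 minus that in the knockout was 3.45 (SE 0.48, edgeR adjusted p = 0.0126), from 1.67 with miR-96 and -1.78 in the knockout. Nfkbiz stood out for the same reason, with a difference of 1.75 (SE 0.43, edgeR adjusted p = 0.0418), from 1.07 with miR-96 and -0.68 in the knockout. The Il1r1 call was lost without knockout library 1 (edgeR adjusted p = 0.0589) or wild-type library 2 (0.0651). The Nfkbiz call held in 7 of 15 alternatives, among them the crossed pairing chosen after seeing the data. Among the 8 that lost it were upper-quartile factors and each fit without a control vector, knockout or wild-type library, with edgeR adjusted p values up to 0.156. Groups of 2 libraries are too small to look for single libraries far from the rest.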

How the results depend on the processing

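Il1r1, Il1r2, Il1rn and Nfkbiz kept their direction in all 3 contrasts under every alternative run. Their libraries did not overlap in either comparison, so leaving 1 out could hardly turn a sign, and the kept direction adds little. The calls moved with the test and with single libraries, and the cause was not tested. As reported, miR-96 against control vector called 0 of the 9 genes, 0 of the other pathway genes, 13 genes in all, knockout against wild type called 1 of the 9 genes, 4 of the other pathway genes, 1544 genes in all, the difference of the contrasts called 2 of the 9 genes, 3 of the other pathway genes, 1070 genes in all, the 4-group test called 1 of the 9 genes, 0 of the other pathway genes, 125 genes in all. With upper-quartile factors the difference of the contrasts called 1 of the 9 genes. With no filter on low counts miR-96 against control vector called 3 of the 9 genes, 3 of the other pathway genes, 466 genes in all, knockout against wild type called 5 of the 9 genes, 12 of the other pathway genes, 3151 genes in all, the difference of the contrasts called 4 of the 9 genes, 13 of the other pathway genes, 2534 genes in all, and the 4-group test called 4 of the 9 genes, 15 of the other pathway genes, 3185 genes in all. With DESeq2 miR-96 against control vector called 2 of the 9 genes, 2 of the other pathway genes, 113 genes in all, knockout against wild type called 2 of the 9 genes, 8 of the other pathway genes, the difference of the contrasts called 5 of the other pathway genes, 1647 genes in all, and the 4-group test called 4 of the 9 genes, 8 of the other pathway genes, 1674 genes in all. With only the 4 libraries of a contrast miR-96 against control vector called 8 genes in all, and knockout against wild type called 2 of the 9 genes, 7 of the other pathway genes, 2641 genes in all. With the replicate block knockout against wild type called 1 of the other pathway genes, 477 genes in all, the difference of the contrasts called 1 of the 9 genes, 449 genes in all, and the 4-group test called 0 of the 9 genes, 27 genes in all. With the crossed pairing as block, an alternative chosen after seeing the data, miR-96 against control vector called 1 of the 9 genes, 1 of the other pathway genes, 50 genes in all, knockout against wild type called 4 of the 9 genes, 9 of the other pathway genes, 2882 genes in all, the difference of the contrasts called 4 of the 9 genes, 8 of the other pathway genes, 2255 genes in all, and the 4-group test called 4 of the 9 genes, 6 of the other pathway genes, 1498 genes in all. Over the fits that left out 1 library each, miR-96 against control vector called 0 to 2 of the 9 genes, 0 to 2 of the other pathway genes, 0 to 125 genes in all, knockout against wild type called 0 to 2 of the 9 genes, 0 to 9 of the other pathway genes, 0 to 1975 genes in all, the difference of the contrasts called 0 to 3 of the 9 genes, 0 to 6 of the other pathway genes, 23 to 1613 genes in all, and the 4-group test called 0 to 3 of the 9 genes, 0 to 3 of the other pathway genes, 9 to 497 genes in all. Where a library was left out, the lone library of its group was assumed to vary like the other groups.

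Small log2 fold changes turned sign. With 1 library left out, they ran for Il1rap in the difference from -0.59 to 0.53, Irak3 in the difference from -0.89 to 0.91, Myd88 in the difference from -0.13 to 0.014, Irak1 in the knockout from -0.20 to 0.12. In the same fits they ran for Myd88 in the knockout from -0.0017 to 0.13, Il1rap with miR-96 from -0.997 to 0.091, Myd88 with miR-96 from -0.023 to 0.055, Sigirr with miR-96 from -0.26 to 0.072. Other values that turned were Il1rap in the difference 0.0036 with the replicate block, Irak1 in the knockout 0.030 with upper-quartile factors, Myd88 with miR-96 -0.00054 with the fit of only the 4 libraries of the contrast.

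The labels give both groups of an experiment the duplicate numbers 1 and 2 without saying that a number pairs them. The deviations of same-numbered libraries correlated at -0.22 in the vector experiment and 0.10 in the genotype experiment, over genes. With the replicate block the edgeR adjusted p was 0.0847 for Nfkbiz in the difference and 0.0618 for Il1r1 in the 4-group test, neither of them called. With upper-quartile factors the median log2 fold change of all genes was 0.06 in the knockout and -0.07 in the difference. Levels near 1 CPM, such as those of Il1rn in the knockout and Irak3, rest on few counts, which limits what can be seen there.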
